A study of Mus musculus with 2 samples.

Results

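The core of the spliceosome, the machine that removes introns from pre-mRNA, was followed through 42 genes in single cells of mouse embryos. The genes were taken by symbol from a written list of the complex's parts. The rule holds no measured value, but the list was drawn up with earlier results of these data known. All 42 were among the 32285 genes counted, and all 42 had UMIs (unique molecular identifiers, each standing for 1 captured transcript) in both libraries. The cells came from trunks and limbs of E14 embryos that carried a floxed Srsf2 allele, Cre recombinase driven from the Myf5 locus and the tdT reporter, and were sorted on tdT. Myf5 is a gene of the muscle lineage, so recombination is meant for myogenic cells, yet the sorted cells held many other types and every share below is a share within the tdT gate. One library was titled SRSF2f/f/Myf5-Cre/tdT (both Srsf2 alleles floxed) and one SRSF2f/w/Myf5-Cre/tdT (a floxed and a wild-type allele), and both carried Cre and the reporter. Each was made with 10x Genomics 3′ chemistry from 1 embryonic sample, with 1 library per genotype, so there were no replicates and no test between genotypes was possible.

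The spliceosome is assembled from small nuclear ribonucleoproteins (snRNPs), each a small nuclear RNA with its proteins. The U1 snRNP marks the 5′ splice site, the U2 snRNP with SF3a and SF3b binds the branch site, SF1 and the 2 U2AF subunits recognise the branch site and the 3′ splice site first, and the U4/U6.U5 tri-snRNP brings the catalytic parts. A ring of Sm proteins sits on U1, U2, U4 and U5, a ring of LSm proteins sits on U6, and the NTC (the complex around Prpf19) joins as the catalytic centre forms. Every intron-containing transcript needs these parts, so the genes are active in nearly every nucleated cell. SRSF2 is an SR protein that binds exonic enhancers and helps U1 and U2 to be recruited, but it is not one of the 42.

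The level of the targeted gene went against the genotype titles. Srsf2 was at 219 CPM (UMIs of a gene per 1000000 UMIs of the same cells) in the library labelled f/f and at 153 CPM in the library labelled f/w, a log2 ratio of -0.52 (-0.54 to -0.49), the opposite of what the titles imply. Headings in the study's quality-control plots give the 2 genotypes the other way round, while the colour key of another of its plots follows the titles. The alignment summary deposited with the library labelled f/w is marked KO and that of the library labelled f/f WT. Skeletal muscle cells, the cells that Myf5-Cre targets, were also far fewer in the library labelled f/w (0.638% against 9.54% of kept cells, by the markers below). The libraries are therefore called by their labels throughout, each ratio between them is the library labelled f/w over the library labelled f/f, and every direction is one between labelled libraries. The part of Srsf2 that Cre removes is not given in the sources used here, and 3′ chemistry may count a transcript that lacks it, so this level is no count of recombined cells. After filters 12523 cells with 151555303 UMIs remained in the library labelled f/f and 10345 cells with 122938843 UMIs in the library labelled f/w, with medians of 10751 and 9480 UMIs per cell. The libraries shared 74 barcode sequences, in 50 of which both cells were kept. Intervals in brackets are exact at 95%, cover counting error only, and say nothing of the spread between embryos.

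Cells were named only from fixed marker genes. A cell was given a class when at least 4 UMIs over at least 2 markers of that class made up at least 75% of its class-marker UMIs, and names such as SKM-like (skeletal muscle), Mesen-like (mesenchyme) or Chon-like (cartilage) stand for that rule. This named 7056 cells of the library labelled f/f and 5969 of the library labelled f/w. Cells that met the limit for a class but not the 75% share were kept apart as mixed cells (3155 and 2139), and the other 2312 and 2237 cells had too few marker UMIs. Of 11 genes outside the marker lists, 1 for each class, 10 were highest in their own class in both libraries, among them Ttn in SKM-like and Col2a1 in Chon-like cells. The exception was Col1a2, which was at 4139 CPM in Mesen-like and at 11572 CPM in Osteo-like cells of the library labelled f/f. SKM-like cells numbered 1195 of the kept cells (9.54%) in the library labelled f/f and 66 (0.638%) in the library labelled f/w.

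Promoters are shown for the 4 LSm genes on which the results below turn, Lsm6 for its level in muscle and Lsm2, Lsm3 and Lsm5 for their levels in cycling cells. RefSeq promoter windows (GRCm38.p6, 250 bases before to 50 bases after a start site) were found for 34 of the 42 genes, and Eftud2, Lsm4, Sf3b4, Sf3b5, Snrnp40, Snrpb, Snrpd1 and U2af2 had no entry. For Lsm2 the first of 2 entries is shown. Sequences run 5′ to 3′ on the strand of the gene, and capitals mark matches to any of 4 short motifs on either strand, CAGCTG (an E-box of the kind bound by MyoD family factors), GCGGGAA (the core of many E2F sites), TTTGAA (the CHR element of cell-cycle genes) and GCATGCGC (NRF1).
Lsm6, chr8:78821103-78821402, minus strand: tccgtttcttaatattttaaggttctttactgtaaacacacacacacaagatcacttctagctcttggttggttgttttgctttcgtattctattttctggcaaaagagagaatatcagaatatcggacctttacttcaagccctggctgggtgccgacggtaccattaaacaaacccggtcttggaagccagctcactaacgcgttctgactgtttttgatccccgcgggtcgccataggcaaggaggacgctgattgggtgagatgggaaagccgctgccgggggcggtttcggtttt
Lsm2, chr17:34981604-34981903, plus strand: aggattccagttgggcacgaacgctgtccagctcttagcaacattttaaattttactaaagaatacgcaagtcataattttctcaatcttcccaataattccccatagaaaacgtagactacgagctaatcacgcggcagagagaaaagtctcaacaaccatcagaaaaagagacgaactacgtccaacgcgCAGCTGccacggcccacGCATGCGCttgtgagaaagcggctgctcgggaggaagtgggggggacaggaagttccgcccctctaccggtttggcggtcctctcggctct
Lsm3, chr6:91515785-91516084, plus strand: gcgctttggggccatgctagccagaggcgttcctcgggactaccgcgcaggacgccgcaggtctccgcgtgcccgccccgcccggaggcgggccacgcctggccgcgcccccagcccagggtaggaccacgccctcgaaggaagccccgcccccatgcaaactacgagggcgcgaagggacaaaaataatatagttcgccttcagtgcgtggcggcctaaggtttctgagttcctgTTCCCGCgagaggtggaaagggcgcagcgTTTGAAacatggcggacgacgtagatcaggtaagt
Lsm5, chr6:56704650-56704949, minus strand: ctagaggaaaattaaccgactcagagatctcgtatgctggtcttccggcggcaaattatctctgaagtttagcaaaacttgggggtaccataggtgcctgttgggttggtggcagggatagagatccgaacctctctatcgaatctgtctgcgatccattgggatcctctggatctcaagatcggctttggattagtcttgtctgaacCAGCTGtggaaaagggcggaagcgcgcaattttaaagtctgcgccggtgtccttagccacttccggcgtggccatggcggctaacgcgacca
Lsm6 held none of the 4 motifs in this window. Lsm3 held GCGGGAA on the reverse strand at -14 and TTTGAA at 16 bases from the start site, Lsm2 held CAGCTG at -58 and GCATGCGC at -41, and Lsm5 held CAGCTG at -42. Of 32851 mouse promoter windows of this length, 16.3% held CAGCTG, 4.60% GCGGGAA, 17.9% TTTGAA and 2.71% GCATGCGC. Among the 34 genes with a window these motifs were in 3, 5, 5 and 4. A gene was counted when any of its windows matched, so these counts and the shares of single windows are unlike units. These matches are letters in a window and not measured binding. In the GRCm38 annotation Lsm6 lies at chr8:78804865-78821140 on the minus strand, and neither it nor Lsm2, Lsm5, Snrpf, U2af1 or Eftud2 overlaps another gene on its own strand. Lsm3, Sf3a3, Sf3b3, Sf3b4 and Snrpa1 do overlap one, and their counts may hold reads of the neighbour.

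The 42 genes together were highest in SKM-like cells of both libraries. They took 9177 CPM (9132 to 9221) in the 1195 SKM-like cells of the library labelled f/f and 9364 CPM (9179 to 9551) in the 66 of the library labelled f/w. The next class was Epi-like in the library labelled f/f, at 7336 CPM (7193 to 7481), and Neu-like in the library labelled f/w, at 6680 CPM (6628 to 6732). Chon-like cells were at 6239 and 6100 CPM and Osteo-like cells, with the lowest sum of the nucleated classes, at 4919 and 5039 CPM. Neighbours in this order were often not apart. Peri-like cells at 6752 CPM (6555 to 6954) and Neu-like cells at 6749 CPM (6673 to 6826) overlapped in the library labelled f/f, and Neu-like, Immu-like and Epi-like cells overlapped in the library labelled f/w. Ery-like cells, red cells that fill with haemoglobin, stood far below all others at 458 CPM (402 to 520) and 371 CPM (326 to 420), where mitochondrial, ribosomal protein and haemoglobin genes took 91.9% and 92.6% of the UMIs. In the library labelled f/w these genes took 19.5% of the UMIs of Neu-like, 33.3% of Immu-like and 34.7% of Epi-like cells. The order of the classes below SKM-like therefore depends on the scaling to all UMIs. Sums are led by the genes with most UMIs, so each gene is also read by itself.

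**Figure D1:**
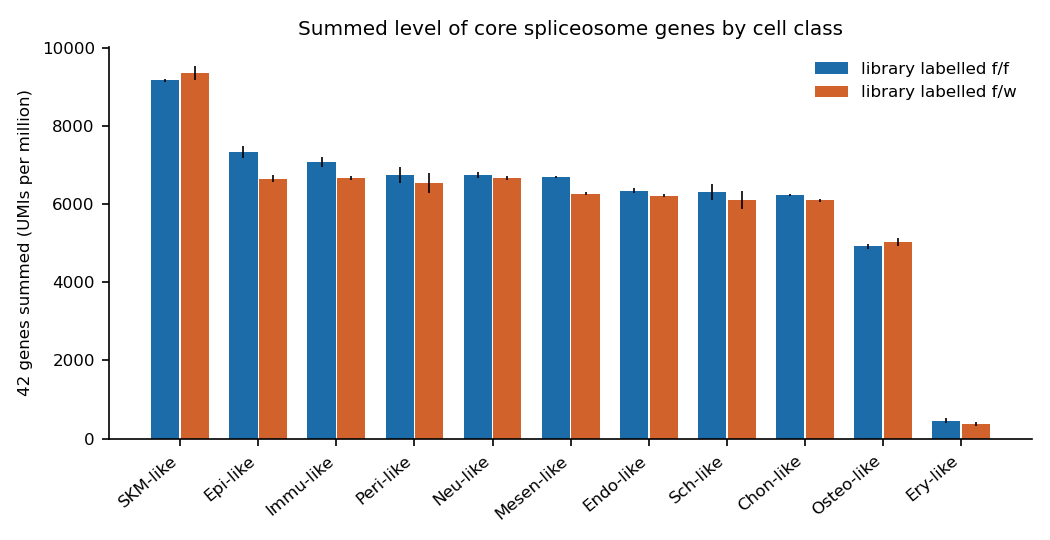
Summed level of the 42 core spliceosome genes in CPM for each of 11 cell classes (bars, starting at 0; blue, library labelled f/f; orange, library labelled f/w), with exact 95% counting intervals as error lines. SKM-like cells stand highest at 9177 and 9364 and Ery-like cells lowest at 458 and 371.

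Gene by gene, 24 of the 42 had their highest level in SKM-like cells of the library labelled f/f and 27 in the library labelled f/w, over the 10 classes other than Ery-like (with 37 cells at the fewest). For 11 and 12 of these the interval lay wholly above that of the next class. Osteo-like cells were lowest for 28 and 23 genes. Lsm6, a subunit of the ring on U6 and of the related ring of mRNA decay, varied most, from 110 CPM in Osteo-like to 713 CPM in SKM-like cells of the library labelled f/f, a 6.47-fold range. Sf3b1, the SF3b subunit that clamps the branch site, varied least there, from 310 CPM in Chon-like to 385 CPM in Neu-like cells, a 1.24-fold range. In the library labelled f/w the range of Lsm6 was 8.17-fold, from 85.2 CPM in Sch-like to 697 CPM in SKM-like cells, and Cdc5l of the NTC had the smallest at 1.46-fold. Snrnp70, which binds the U1 RNA, was highest in Neu-like cells of both libraries, with its interval above the next class in both. This rank holds for scaling to all UMIs. Mitochondrial, ribosomal protein and haemoglobin genes took 20.3% of the UMIs of Neu-like but 36.6% of SKM-like cells in the library labelled f/f. In the library labelled f/w they took 19.5% and 36.2%. Leaving these genes out would raise SKM-like levels more than Neu-like ones, so the rank of Snrnp70 against SKM-like cells was not firm.

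In SKM-like cells against all other named cells of the same library, the 42 genes stood higher as a set. The summed level was 9177 against 6390 CPM in the library labelled f/f, a log2 ratio of 0.52 (0.51 to 0.53), and 9364 against 6244 CPM in the library labelled f/w, 0.58 (0.56 to 0.61). In the library labelled f/f 39 of 42 genes were above 0 with a median of 0.39, where the median of all 12009 genes with at least 200 UMIs was -0.33 and 36.8% of them were above 0. Past 1.5-fold, 12 of the 42 were higher and 0 lower, beside 13.0% higher and 41.4% lower of all genes. In the library labelled f/w 39 were again above 0 with a median of 0.48, beside -0.50 for all genes. There 15 of the 42 were past 1.5-fold higher and 0 lower, beside 13.8% higher and 47.5% lower of all genes.

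By its sum the LSm ring stood highest in this comparison. Its 7 genes together were at 1741 CPM in SKM-like and 786 CPM in other named cells of the library labelled f/f, a log2 ratio of 1.15 (1.13 to 1.17), and 5 of the 7 were past 1.5-fold. Lsm6 held 713 of these 1741 CPM, so it weighed on the sum. Lsm6 alone was at 713 against 145 CPM, a log2 ratio of 2.29 (2.26 to 2.33), and at 697 against 121 CPM in the library labelled f/w, 2.53 (2.42 to 2.64). Lsm5 followed at 188 against 101 CPM, 0.90 (0.84 to 0.96), and at 218 against 95.8 CPM in the library labelled f/w, 1.19 (0.99 to 1.38). Lsm4 was at 0.84 (0.79 to 0.88) and 0.89 (0.74 to 1.04) on the log2 scale. Lsm7 and Lsm8 had smaller ratios, at 0.37 and 0.40 in the library labelled f/f, and Lsm8, the subunit that only the nuclear ring holds, passed 1.5-fold in neither library.

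Among the other subunits the ratios were uneven. None reached those of Lsm6 and Lsm5, but some were above those of other LSm genes, such as U2af1 above Lsm4 in both libraries. U2af1, which reads the AG of the 3′ splice site, was at 454 against 251 CPM in the library labelled f/f, a log2 ratio of 0.85 (0.81 to 0.89), and at 523 against 270 CPM in the library labelled f/w, 0.96 (0.83 to 1.08). Its partner U2af2, which binds the polypyrimidine tract, was at 127 against 106 CPM in the library labelled f/f, 0.26 (0.19 to 0.33). In the library labelled f/w U2af2 was at -0.03 (-0.34 to 0.26), from 96 UMIs in SKM-like cells. The Sm genes were all above 0 in both libraries, from 0.27 for Snrpb to 0.81 for Snrpf in the library labelled f/f. Snrpf was at 570 against 325 CPM there. SF3b was near 0 as a sum, at 0.02 (0.00 to 0.05) and 0.07 (-0.01 to 0.16), but its subunits were uneven. Sf3b2 was at 0.24 (0.19 to 0.28) and 0.14 (-0.04 to 0.32). Sf3b3 was at 0.23 (0.16 to 0.31) and 0.51 (0.24 to 0.76). Sf3b1 was lower in SKM-like cells of the library labelled f/f, at 314 against 348 CPM, -0.15 (-0.19 to -0.11). In the library labelled f/w Sf3b1 was at 298 against 362 CPM, -0.28 (-0.44 to -0.12). Sf3b4 was at -0.09 (-0.20 to 0.01) and -0.22 (-0.68 to 0.20). Sf3b5 differed in side, at -0.09 (-0.14 to -0.04) in the library labelled f/f and 0.25 (0.06 to 0.44) in the library labelled f/w. Sf3b6 and Snrnp70 completed the 5 lowest of the library labelled f/f at 0.12 and 0.14.

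Cycling and depth differed between the classes as well. Of the SKM-like cells 50.2% and 45.5% were cycling by 6 proliferation markers, beside 24.0% and 16.2% of the Chon-like and 40.1% and 45.7% of the Endo-like cells, and Epi-like cells of the library labelled f/w cycled more, at 58.8%. The median depth of SKM-like cells was 14092 and 14938 UMIs against 10790 and 11229 in the other named cells together, and Osteo-like cells were deeper at 21116 and 20377. Among non-cycling cells the summed ratio was 0.44 and 0.38. The ratio of Lsm6 was 3.10 (3.04 to 3.16), with 1033 against 120 CPM, in the library labelled f/f. In the library labelled f/w it was 3.21 (3.04 to 3.38), with 905 against 97.7 CPM. Lsm6 alone took 1033 of the 7794 CPM summed in non-cycling SKM-like cells of the library labelled f/f, so it weighed on the sum. Other genes were uneven there, with Snrpf at 0.71, Snrpe at 0.61, Snrpb at 0.04, Snrpd1 at -0.06 and Sf3b5 at -0.41. In both libraries more of the 42 genes lay below 0 among non-cycling cells than over all cells, though most stayed above it. The median over the genes was also below the summed ratio in both. Scaling to UMIs without mitochondrial, ribosomal protein and haemoglobin genes moved every gene up by 0.19 and 0.16, and 21 and 25 of the 42 were then past 1.5-fold higher, beside 19.5% and 18.5% of all genes. All 42 were then above 0 in the library labelled f/f, Sf3b1, Sf3b4 and Sf3b5 included, so their side of 0 there depended on the scaling. In the library labelled f/w 40 were above 0, and Sf3b1 and Sf3b4 were still below it.

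**Figure D2:**
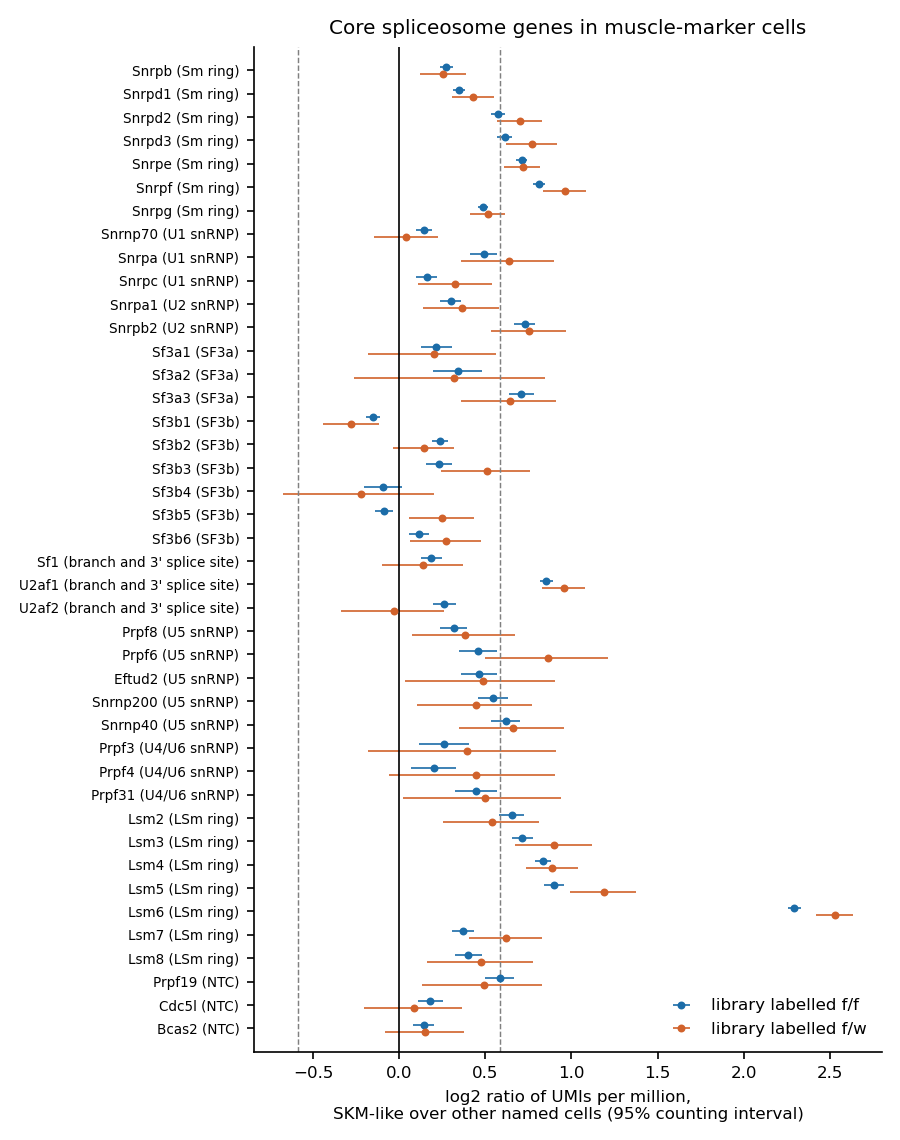
Log2 ratio of CPM in SKM-like over other named cells for each of the 42 genes, ordered by complex (points with exact 95% counting intervals; blue, library labelled f/f; orange, library labelled f/w; dashed lines, 1.5-fold). Lsm6 lies far to the right at 2.29 and 2.53, and Sf3b1 lies below 0 in both libraries at -0.15 and -0.28.

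Within muscle, Lsm6 was higher and most of the other genes were lower in differentiating cells than in progenitors. SKM-like cells were read as Pax7-type (at least 1 UMI of Pax7, the progenitor factor, and at most 1 of Myog) or Myog-type (at least 4 UMIs of Myog, a factor of differentiation, and 0 of Pax7). The library labelled f/f held 273 and 669 of these, the library labelled f/w only 10 and 45. The mix of the 2 states depended on the marker limits of the SKM-like class. In the library labelled f/f a 50% marker share gave 806 Pax7-type and 759 Myog-type cells, and limits of 8 marker UMIs and 90% gave 38 and 346. In the library labelled f/f the 42 genes summed to 8558 CPM in Myog-type and 10064 CPM in Pax7-type cells, a log2 ratio of -0.23 (-0.25 to -0.22). Only 3 of 42 were above 0, with a median of -0.37 beside -0.14 for all 5879 genes with at least 200 UMIs. Past 1.5-fold, 1 was higher and 7 lower, beside 12.4% higher and 21.8% lower of all genes. The 7 were Prpf4, Sf3b4, Lsm3, Lsm8, Sf3b5, Prpf3 and Lsm2.

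Lsm6 was the gene that stood higher. It was at 962 CPM in Myog-type and 298 CPM in Pax7-type cells, a log2 ratio of 1.69 (1.61 to 1.78). Snrpb2, a U2 protein that binds the U2 RNA, was at 198 against 148 CPM, 0.42 (0.29 to 0.55). Prpf6, a bridge of the tri-snRNP, was at 0.14 (-0.10 to 0.39), U2af1 at -0.01 (-0.09 to 0.07) and Sf3b1 at -0.13 (-0.22 to -0.03). At the other end Prpf4, a protein of U4/U6, was at 26.2 against 48.2 CPM, -0.88 (-1.15 to -0.60). Sf3b4 was at 36.1 against 64.0 CPM, -0.83 (-1.06 to -0.59). Lsm3 was at 128 against 215 CPM, -0.75 (-0.87 to -0.62), and Lsm8 at 76.6 against 129 CPM, -0.75 (-0.91 to -0.59). Lsm6 and Lsm3, parts of the same ring, thus lay on opposite sides of 0.

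The cell cycle moved with this comparison, since 217 of the 273 Pax7-type but 207 of the 669 Myog-type cells were cycling. Among cycling cells alone the summed ratio was -0.06 (-0.08 to -0.04), while the median over the 42 was -0.16 with 9 above 0, beside a median of -0.08 for all 4092 genes with at least 200 UMIs. Lsm3 was at -0.20 (-0.35 to -0.05), Prpf4 at -0.25 (-0.57 to 0.08) and Lsm2 at 0.03 (-0.14 to 0.20). Lsm6 was at 1.29 (1.19 to 1.39) there, with 743 against 304 CPM, and Snrpb2 was at 0.60 (0.44 to 0.77). Within Myog-type cells Lsm3 was at 200 CPM in cycling and 87.3 CPM in non-cycling cells, whereas Lsm6 was at 743 and 1114 CPM. When SKM-like cells of the library labelled f/f were ordered by Myog UMIs, the level of Lsm6 went up by steps from 1 Myog UMI on. It was at 298 CPM (268 to 332) with 1 Myog UMI, no higher than with 0. Lsm6 was at 301 CPM (283 to 319) in the 232 cells with 0 Myog UMIs, at 511 CPM (473 to 551) with 4 to 7, at 985 CPM (960 to 1011) with 16 to 31 and at 1106 CPM (1058 to 1156) with 32 or more. Lsm3 went from 219 CPM (203 to 235) with 0 to 129 CPM (121 to 139) with 16 to 31, and the 42 genes together from 10023 to 8326 CPM at the top. Cycling moved with this order as well, with 183 of the 232 cells cycling at 0 Myog UMIs and 32 of the 94 at 32 or more. Its part in these levels was not tested. In the library labelled f/w a single step held at least 20 cells, 23 cells with 16 to 31 Myog UMIs, and Lsm6 was at 860 CPM (769 to 958) in it.

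**Figure D3:**
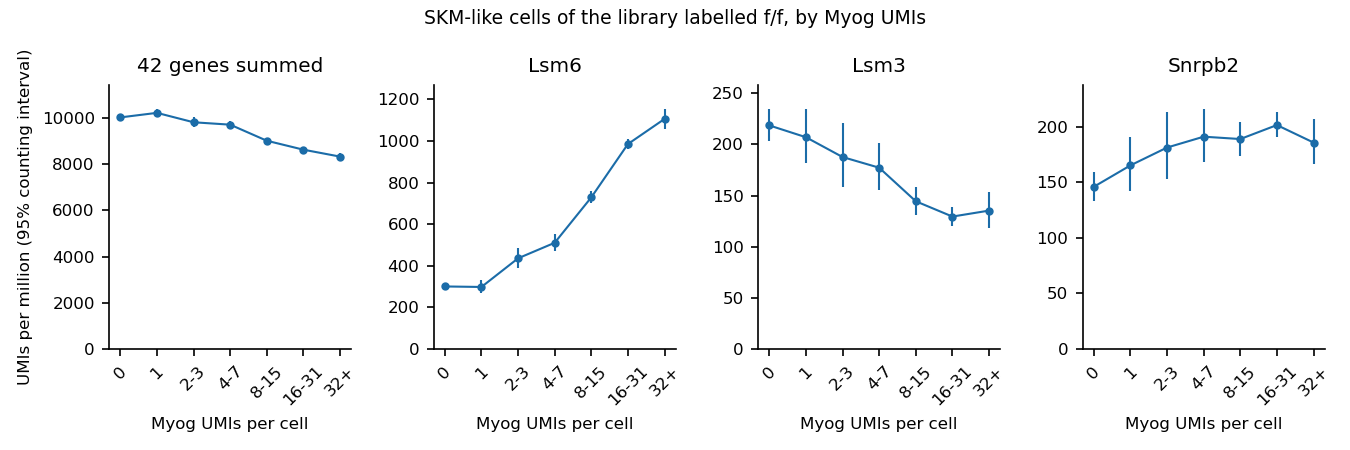
Levels in CPM of all 42 genes summed, of Lsm6, of Lsm3 and of Snrpb2 in SKM-like cells of the library labelled f/f, grouped by the number of Myog UMIs per cell (points with exact 95% counting intervals, each axis starting at 0). Lsm6 goes from 301 in the first group to 1106 in the last, Lsm3 from 219 to 135 and the sum from 10023 to 8326.

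In cycling cells the 42 genes together stood higher than in non-cycling cells of the same class in each of the 6 classes compared and in both libraries. A cell was called cycling with at least 4 UMIs over at least 2 of the 6 proliferation markers and non-cycling with at most 1. In Chon-like cells the genes summed to 7391 against 5569 CPM in the library labelled f/f, a log2 ratio of 0.41 (0.39 to 0.42), and to 7310 against 5601 CPM in the library labelled f/w, 0.38 (0.37 to 0.40). Of the 42 genes 41 and 42 were above 0, with medians of 0.37 and 0.32 beside 0.05 and 0.01 for all genes. Past 1.5-fold, 9 were higher in the library labelled f/f, beside 9.44% of all 7424 genes, and 8 in the library labelled f/w, beside 7.89% of 7107. None of the 42 was past 1.5-fold lower in either, where 3.0% and 3.18% of all genes were. Mesen-like cells gave 0.31 (0.30 to 0.33) with 7 of 42 higher beside 7.23%, and 0.28 (0.26 to 0.30) with 6 higher beside 7.52%, again with 0 lower beside 2.83% and 3.38%. The summed ratio was 0.40 and 0.34 in Endo-like, 0.58 and 0.44 in Immu-like and 0.23 and 0.19 in Neu-like cells. Cycling cells held more UMIs, a median of 17269 against 11143 in Chon-like cells of the library labelled f/f, and among cells of 10000 to 20000 UMIs the ratios in Chon-like cells were 0.38 and 0.38.

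LSm subunits had the highest medians over the 12 comparisons (6 classes in 2 libraries). Lsm3 was at 160 against 55.6 CPM in Chon-like cells of the library labelled f/f, a log2 ratio of 1.52 (1.39 to 1.66), and at 155 against 56.1 CPM in the library labelled f/w, 1.47 (1.33 to 1.61). It had at least 200 UMIs in 11 of the 12 comparisons and was past 1.5-fold higher in all 11, from 0.69 to 1.52. Lsm2 was past 1.5-fold higher in 10 of 10, from 0.89 to 1.43, and Lsm5 in 11 of 11, from 0.69 to 1.45. Prpf4 passed in 6 of 8 with a median of 0.66, Lsm8 in 6 of 9 with a median of 0.60 and Eftud2, the GTPase of the U5 snRNP, in 5 of 9 with a median of 0.68. At the other end Prpf6 had a median of -0.08, Lsm7 and Sf1, the branch-site reader, of 0.06 and Sf3b1 of 0.07. In Chon-like cells of the library labelled f/f the 5 lowest were Prpf6 at -0.10 (-0.33 to 0.12), Lsm7 at 0.06, Sf3b6 at 0.06, Sf3b1 at 0.10 and Sf1 at 0.18. The ring on U6 was thus uneven, with Lsm3 and Lsm7 at its ends.

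In SKM-like cells as a whole Lsm6 was on the other side of 0 from the other classes. In SKM-like cells of the library labelled f/f (600 cycling, 415 non-cycling) the 42 genes summed to 10051 against 7794 CPM, 0.37 (0.35 to 0.38), with a median of 0.46 beside 0.15 for all genes. Past 1.5-fold, 14 were higher beside 22.6% of all 6240 genes, and 1 was lower beside 8.89%. Lsm2 led at 155 against 57.5 CPM, 1.43, then Prpf4 at 1.38 (1.05 to 1.73), Lsm3 at 1.19 (1.05 to 1.34), Prpf3 at 0.99 (0.66 to 1.34) and Snrpd1, an Sm protein, at 0.93 (0.85 to 1.01). The gene that was lower was Lsm6, at 517 in cycling against 1033 CPM in non-cycling cells, -0.999 (-1.05 to -0.94). Prpf6, Snrpb2, Prpf19 and Snrpa followed at -0.08, -0.06, 0.04 and 0.14. Scaling without mitochondrial, ribosomal protein and haemoglobin genes moved every gene down by 0.12, which left 10 of 42 past 1.5-fold higher beside 17.9% of all genes, and Lsm6 lower beside 11.6%, and put Prpf19 below 0. In the 30 cycling and 26 non-cycling SKM-like cells of the library labelled f/w Lsm6 was at 529 against 905 CPM, -0.77 (-1.01 to -0.54), and 13 of the 42 genes had at least 200 UMIs. In Chon-like cells Lsm6 went the other way, at 205 against 120 CPM, 0.77 (0.67 to 0.87), and at 188 against 98.6 CPM in the library labelled f/w, 0.93 (0.81 to 1.05). The ratio of Lsm6 was also above 0 in Mesen-like, Endo-like, Immu-like and Neu-like cells of both libraries, from 0.34 to 0.73.

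**Figure D4:**
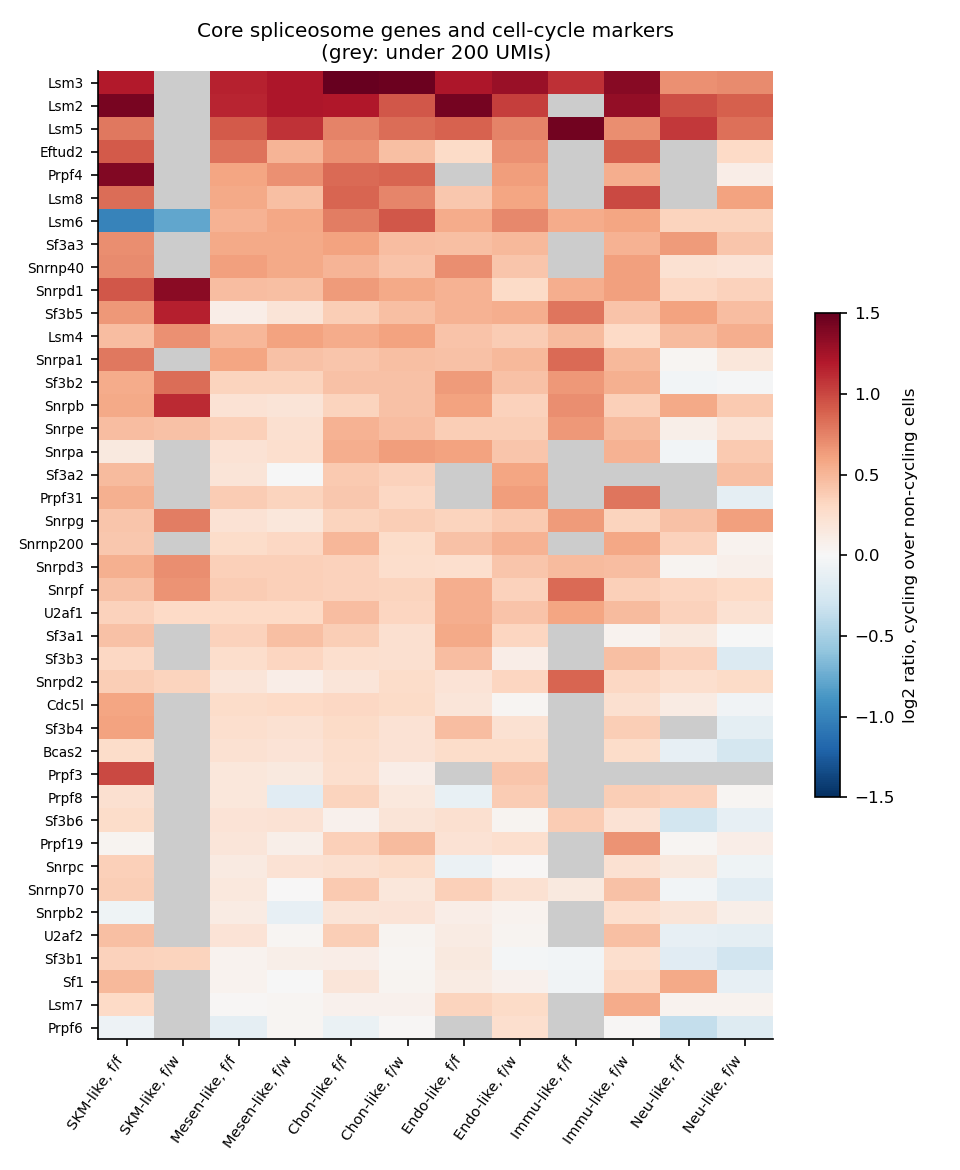
Log2 ratio of CPM in cycling over non-cycling cells for the 42 genes (rows, ordered by their median) in 6 classes of the libraries labelled f/f and f/w (columns; red higher, blue lower, colours end at 1.5 on the log2 scale, grey under 200 UMIs). Lsm3, Lsm2 and Lsm5 are red in every column where they could be read, and Lsm6 is blue in the 2 SKM-like columns at -0.999 and -0.77 and red in the others.

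Between the libraries the 42 genes summed to ratios nearer to 0 in SKM-like, Mesen-like and Chon-like cells than over all kept cells, while single genes were at times further from 0 within a class. Over all kept cells they summed to 6335 CPM in the library labelled f/w and 7276 CPM in the library labelled f/f, a log2 ratio of -0.20 (-0.20 to -0.20), and 39 genes had intervals below 0. Past 1.5-fold, 0 of the 42 were higher beside 13.2% of all 14478 genes, and 1 was lower beside 5.66%. That gene was Lsm6, at 122 against 241 CPM, -0.98. Snrpf followed at 273 against 402 CPM, -0.56 (-0.58 to -0.54), then Eftud2 at 30.9 against 45.1 CPM, -0.55 (-0.60 to -0.49), Lsm3 at -0.43 and Lsm5 at -0.41. The highest were Sf3b1 at 372 against 347 CPM, 0.10 (0.08 to 0.12), Snrpb at 0.06 (0.04 to 0.08), Sf3b6 at -0.03, Sf3b4 at -0.06 and Snrpc at -0.07. The make-up of the libraries moved with these values, with 9.54% against 0.638% SKM-like cells and 32.1% against 21.0% cycling cells in the libraries labelled f/f and f/w. Without SKM-like cells the summed ratio was -0.15, and among non-cycling cells it was -0.08. The part of the make-up in the ratio of each gene was not tested.

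In the 66 against 1195 SKM-like cells the sum was at 0.03 (-0.00 to 0.06) while the median over genes was -0.01, and none of the 42 passed 1.5-fold, where 3.16% of all genes were higher and 9.84% lower. The 66 cells held few UMIs of genes near the minimum of 200, and counting error alone can take such genes past 1.5-fold. In the 66 cells Sf3a2 held 29 UMIs and Snrpg 811, so these shares do not show whether the members were steadier than other genes. Lsm6 was at 697 against 713 CPM there, -0.03 (-0.14 to 0.08). U2af2 was the lowest at 91.5 against 127 CPM, -0.48 (-0.79 to -0.18), from 96 UMIs, then Prpf19 at -0.38 (-0.74 to -0.03), Eftud2 at -0.33 (-0.79 to 0.09), Sf3a1 at -0.27 and Cdc5l at -0.21. Prpf6 was the highest at 0.36 (-0.01 to 0.72), then Sf3b6, Lsm7 and Lsm5 at 0.22 and U2af1 at 0.21 (0.08 to 0.33). In Mesen-like cells the sum was at -0.09 (-0.11 to -0.08) and 0 of 42 passed 1.5-fold, beside 2.17% higher and 3.18% lower of all genes. The ends there were Sf3a2 at 17.2 against 23.1 CPM, -0.42 (-0.63 to -0.22), Sf3b5 at -0.37, Lsm8 at -0.36 and Sf3b1 at 0.17 (0.13 to 0.21). In Chon-like cells the sum was at -0.03 (-0.04 to -0.02), with 0 of 42 past 1.5-fold beside 0.993% higher and 1.41% lower, and with Eftud2 at -0.49 (-0.63 to -0.35) and Lsm7 at 0.19 (0.11 to 0.26) as its ends. Members past 1.5-fold were found in smaller classes, all lower in the library labelled f/w. In Epi-like cells they were Prpf19 at -0.73 (-1.09 to -0.36), Snrnp200 at -0.71 (-1.09 to -0.32) and Snrpa at -0.59 (-0.90 to -0.27), 3 of 36 with at least 200 UMIs beside 3.53% lower and 6.23% higher of all genes. In Osteo-like cells it was Prpf6 at -0.66 (-1.13 to -0.21), 1 of 37 beside 2.34% lower and 1.2% higher, and in Immu-like cells Eftud2 at -0.63 (-0.92 to -0.33), 1 of 41 beside 11.5% lower and 4.03% higher.

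Mixed cells and cells without enough markers had lower sums in the library labelled f/w, at -0.30 and -0.22. In mixed cells 4 of 42 were past 1.5-fold lower (Lsm6, Snrpf, Eftud2 and Lsm3) and 0 higher, beside 7.63% and 11.2% of all genes. In cells without enough markers 4 were lower (Lsm6, Eftud2, Snrpf and Lsm5) and 0 higher, beside 6.70% and 7.16%. Muscle markers and cycling moved with both. SKM markers summed to 24.6 CPM in the library labelled f/w against 275 CPM in the library labelled f/f in mixed cells, and to 12.6 against 76.8 CPM in cells without enough markers. The cycling shares were 25.3% against 45.6% and 7.06% against 18.6%, and the part of either in these ratios was not tested.

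Some genes kept 1 direction across the 9 classes with at least 50 cells in both libraries. Eftud2 was lower in the library labelled f/w in all 6 classes where it had at least 200 UMIs, from -0.63 in Immu-like to -0.30 in Mesen-like cells, with the interval below 0 in 5 of them. Snrpf was lower in 9 of 9 classes, from -0.36 to -0.10, with the interval below 0 in 6. Sf3b2, an SF3b subunit, was lower in 9 of 9, U2af2, Snrpb2, Sf3a1, Prpf8 and Lsm6 were each lower in 8 of 8, and Prpf31, a U4/U6 protein, was lower in 6 of 6, from -0.51 to -0.01. Snrpb, the SmB protein of the Sm ring, was higher in 9 of 9, from 0.01 to 0.25, with the interval above 0 in 3. Of the 41 members with at least 200 UMIs in 6 or more of these classes, 9 (22.0%) were lower in each and 1 (2.44%) higher, beside 10.3% and 3.84% of all 4641 such genes. Srsf2 itself was lower in each of the 9, from -0.73 in Immu-like to -0.28 in Epi-like cells. In Sch-like cells Srsf2 was under 200 UMIs (70 in the library labelled f/w, 122 in the library labelled f/f), and its interval held 0 (-0.85 to 0.03). The level of muscle markers moved with Lsm6 in the other classes. SKM markers summed to 26.2 CPM in Mesen-like cells of the library labelled f/f but 3.69 CPM in those of the library labelled f/w, and to 26.6 against 3.96 CPM in Chon-like cells. The ratios of Lsm6 there were -0.31 (-0.39 to -0.24) and -0.25 (-0.32 to -0.18), and the part of these muscle transcripts in them was not tested.

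**Figure D5:**
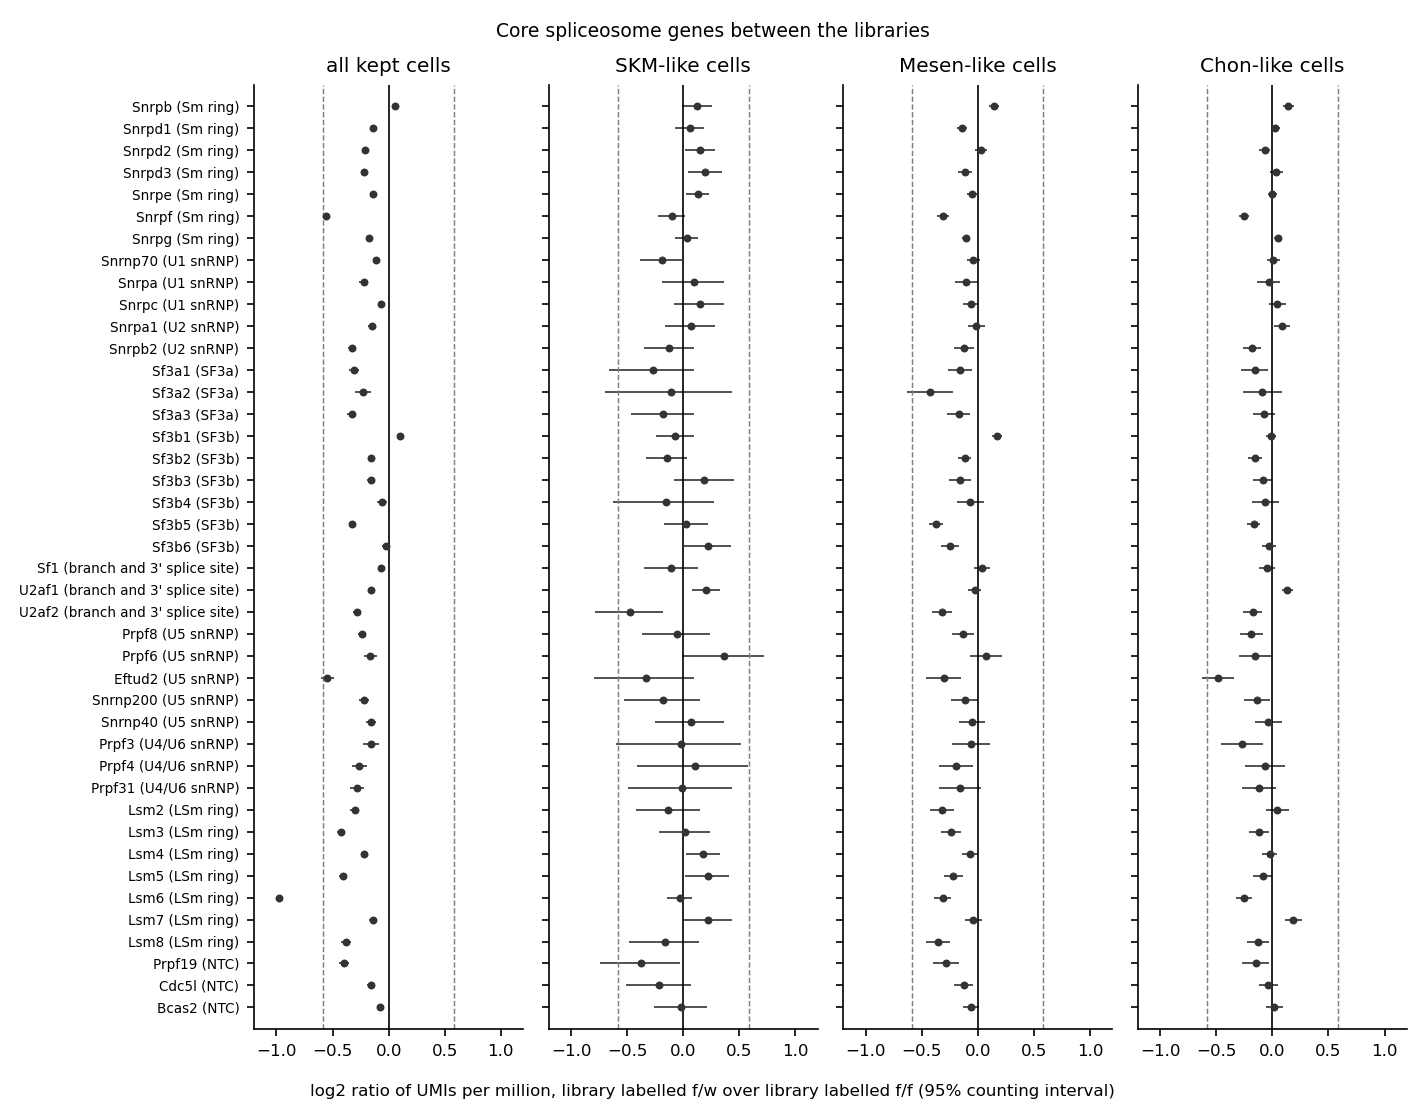
Log2 ratio of CPM, library labelled f/w over library labelled f/f, for the 42 genes in all kept, SKM-like, Mesen-like and Chon-like cells (points with exact 95% counting intervals; dashed lines, 1.5-fold). Lsm6 lies at -0.98 in all kept cells and at -0.03 in SKM-like cells, and no gene passes 1.5-fold in the 3 classes.

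Beyond the core, 87 further spliceosome genes in 7 lists were read in the same way, with 86 of them at 200 UMIs or more. Between the libraries over all kept cells 0 were past 1.5-fold higher and 1 lower, Gemin6 of the SMN complex, which loads Sm rings, at 5.14 against 8.14 CPM, -0.66 (-0.80 to -0.52). In SKM-like over other named cells of the library labelled f/f 20 were higher and 0 lower, with a median of 0.31, and in the library labelled f/w 23 were higher and 2 lower, with a median of 0.25. The shares of all genes past 1.5-fold higher were 13.0% and 13.8%. The SMN and Sm assembly list had the highest median of the 7 in both libraries, 0.50 and 0.58, with 3 and 6 of its 12 tested genes past 1.5-fold higher. The minor spliceosome, which removes a rare class of introns, had the lowest, 0.05 with 0 of 9 past 1.5-fold in the library labelled f/f and -0.12 with 1 higher and 1 lower in the library labelled f/w. The highest gene of each list in the library labelled f/f was Luc7l3 at 1.08 (U1 and U2 associated), Aqr at 0.90 (NTC and catalytic step), Ppih at 0.84 (tri-snRNP and B), Ddx39 at 0.80 (helicases), Gemin8 at 0.74 (SMN and Sm assembly), Rnps1 at 0.71 (exon junction complex) and Snrnp35 at 0.56 (minor spliceosome). The lowest were Bud31 at -0.58, Zrsr1 at -0.57, Dhx8 at -0.25, Gemin7 at -0.24, Magoh at -0.20, Luc7l2 at -0.07 and Prpf38b at -0.06. In cycling over non-cycling Chon-like cells of the library labelled f/f 9 of 79 were higher, a share near the 9.44% of all genes, and 0 lower. The highest was Ppih, a cyclophilin of the tri-snRNP, at 52.7 against 17.8 CPM, 1.57 (1.33 to 1.81).

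Snrpn, the imprinted paralog of Snrpb whose SmN protein can take the place of SmB, was a gene of the Neu-like cells. It was at 257 CPM (242 to 272) there in the library labelled f/f and at 304 CPM (293 to 315) in the library labelled f/w, and Sch-like cells followed at 24.9 CPM and 43.7 CPM. Snrpb itself was at 275 CPM and 289 CPM in Neu-like cells, near the low end of its range of 260 to 410 CPM in the library labelled f/f. Over all kept cells Snrpn was at 39.0 CPM in the library labelled f/w and 18.4 CPM in the library labelled f/f, a log2 ratio of 1.08 (1.02 to 1.15), where Neu-like cells made up 9.16% and 4.0% of the kept cells. Within Neu-like cells its ratio was 0.24 (0.15 to 0.34). It was also above 0 in Chon-like cells at 0.61 (0.32 to 0.89), in mixed cells at 0.83 (0.67 to 0.99) and in cells without enough markers at 0.84 (0.55 to 1.13). Epi-like cells went the other way, at -0.71 (-1.38 to -0.03), from 48 and 34 UMIs. The part of the make-up in the ratio of Snrpn over all kept cells was not tested. Snrpn overlaps Snurf on its own strand, and reads of the 2 cannot be told apart by position alone.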

How the data were processed

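Single cells were sorted on tdT by the authors and sequenced as 2 libraries with 10x Genomics v3.1 3′ chemistry. The authors deposited raw counts (UMIs for each of 32285 genes and 27766 barcodes), not normalized. Per the labels, Cell Ranger 3.1.0, STAR, Seurat 3.1.1 and mm10 were used, while the header of the deposited matrix names cellranger-5.0.0. The libraries were aggregated by the authors after down-sampling of reads. Barcode suffixes were matched to libraries by the exact numbers of cells (15268 and 12498) in the authors' summaries, and groups follow the sample titles.

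A cell was kept if its log10 UMIs and its log10 detected genes lay no more than 2 SD from the library mean and mitochondrial genes took no more than 10% of its UMIs. No doublet caller was run. Cells with markers of several classes were set apart by the 75% limit. UMIs were summed over cells, scaled to the total of the same cells (CPM) and compared as log2 ratios with exact intervals from the split of counts. With 1 library per genotype no test was made, and called means past 1.5-fold with at least 200 UMIs over both sides. Genes near this minimum pass 1.5-fold more easily by counting error where 1 side holds few UMIs, and the shares of all genes include them. Cells are not replicates. The intervals were tested on counts simulated with counting error only, which cannot show how they fare with spread between cells or embryos. Members, lists and marker limits were chosen with earlier results of these data known. Named genes are all 42 members, the 5 highest and 5 lowest per comparison, Srsf2, Snrpn and the extremes of 7 further lists (87 genes, Ddx39a read as Ddx39). Python 3.11.15, NumPy 2.4.6, SciPy 1.17.1, pandas 2.3.3 and matplotlib 3.10.9 were used. Alternatives changed cell filters, marker and cycling limits, scaling and weighting of cells.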

Additional observations from a re-analysis of the deposited data

Results flagged for a closer look

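Lsm6 lay below 0 with the cell cycle in SKM-like cells as a whole and above 0 in the 5 other classes compared, in both libraries. Its log2 ratio of cycling over non-cycling cells was -0.999 and -0.77 in SKM-like cells of the libraries labelled f/f and f/w. It was 0.52 and 0.59 in Mesen-like, 0.77 and 0.93 in Chon-like, 0.55 and 0.73 in Endo-like, 0.56 and 0.59 in Immu-like and 0.34 and 0.34 in Neu-like cells. These values stand out because both libraries of 1 class moved one way and both libraries of the others the opposite way, with counting intervals clear of 0. The difference between classes was not tested, since each class had 1 library per genotype. In SKM-like cells of the library labelled f/f Myog-type cells, which were high in Lsm6, made up 334 of the 415 non-cycling and 207 of the 600 cycling cells. Within Myog-type cells the ratio was -0.58 (-0.65 to -0.51). Myog UMIs were not held equal there. In SKM-like cells of that library 59 of the 89 with 4 to 7 Myog UMIs were cycling, but 135 of the 417 with 16 to 31. The part of the Myog level in this ratio was not tested. Within Pax7-type cells of that library Lsm6 was at 304 CPM (286 to 322) in 217 cycling cells. It was at 230 CPM (177 to 294) in 25 non-cycling ones, from 64 UMIs. Cycling cells were thus the higher side in Pax7-type cells, as in the other classes. The intervals of these levels overlapped, which does not decide whether the levels differed. The lower level of Lsm6 in cycling muscle cells was therefore seen in Myog-type cells and over all SKM-like cells, but not in Pax7-type cells. Among genes with at least 200 UMIs, no other of the 42 lay on one side of 0 in SKM-like cells and on the other side in all other classes.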

How the results depend on the processing

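All values are log2 ratios of the 42 genes summed, unless counts are named. A limit of 5% mitochondrial UMIs gave -0.19 between the libraries (f/w over f/f labels) over all kept cells, 0.55 and 0.63 for SKM-like over other named cells (libraries labelled f/f and f/w), 0.35 for cycling over non-cycling SKM-like cells and -0.20 for Myog-type over Pax7-type cells. Scaling without mitochondrial, ribosomal protein and haemoglobin genes gave -0.23, 0.71 and 0.74, 0.25 and -0.15 for these, and 0.35 and 0.34 for cycling Chon-like cells. Equal weight for each cell gave -0.17 between the libraries over all kept, -0.00383 in SKM-like and -0.083 in Mesen-like cells, 0.51 and 0.54 for SKM-like over others, and 0.35, 0.39 and 0.36 for cycling SKM-like and Chon-like cells. The median over genes in place of the sum gave -0.22, -0.015, -0.12 and -0.065 between the libraries (all kept, SKM-like, Mesen-like, Chon-like), 0.39 and 0.48 for SKM-like over others, 0.46, 0.37 and 0.32 for cycling cells and -0.37 for Myog-type. Non-cycling cells gave -0.081, -0.076 and -0.061 between the libraries over all kept, SKM-like and Mesen-like cells, and the Chon-like value changed sign, to 0.0084. For SKM-like over others they gave 0.44 and 0.38. Snrnp40 was at -0.71 (-1.72 to 0.13) in the library labelled f/w, from 26 SKM-like cells. In the library labelled f/f it was at 0.40 (0.23 to 0.58). The library ratio in SKM-like cells thus lay on either side of 0 (0.03 as reported), and the cause was not tested. Limits of 8 marker UMIs and 90% gave -0.018 in Chon-like cells between the libraries, 0.50 and 0.54 for SKM-like over others and 0.39 for cycling SKM-like cells. A cycling limit of 8 UMIs gave 0.46 and 0.41 in Chon-like cells. At a lower fold limit (0.322 on the log2 scale), 10 (all lower), 4 (1 higher), 3 (all lower) and 1 (lower) genes were called between the libraries, where 14.8%, 23.5%, 14.6% and 9.93% of all genes were lower. For SKM-like over others 24 and 29 were called, all higher (22.8% and 22.1% of all genes), for cycling cells 33 (32 higher), 29 and 21 (all higher; 36.8%, 20.9% and 18%), and for Myog-type 31 (29 lower; 35.8%), while no count moved by over 1.5 times without the UMI minimum. Added after seeing the data, a 50% marker share gave 0.064 and -0.047 between the libraries in SKM-like and Chon-like cells, 0.64 for SKM-like over others (labelled f/w), 0.34 and 0.35 for cycling SKM-like and Chon-like cells (labelled f/w) and -0.21 for Myog-type. Cells of 10000 to 20000 UMIs gave 0.38 in cycling Chon-like cells, and cycling cells alone gave -0.062 for Myog-type, with Lsm2 at 0.026. Of 1032 values of single genes, 861 stayed within the counting interval, 169 were classed as moved and 2 as reversed. These classes do not count changes of sign. The sum in SKM-like cells between the libraries went from 0.03 to -0.00383 with equal weight for each cell and was classed as moved. No paired analysis was possible because each genotype had 1 library, and no replicate could be left out.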
